A study of Mus musculus with 6 samples.

Results

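CoREST corepressors and the histone deacetylases that work with them were read in induced regulatory T (iTreg) cells with and without the microRNA miR-31. The set held 10 genes: the CoREST scaffolds Rcor1, Rcor2 and Rcor3, the zinc-dependent deacetylases Hdac1, Hdac2, Hdac3, Hdac6, Hdac7 and Hdac9, and the NAD-dependent deacetylase Sirt1. A probe belonged to the set when its gene name on the array equalled one of these names. This gave 20 of the 41174 probes that were not controls. Of the 20, 15 had a signal well over background on 3 or more arrays and were tested among 22281 such probes. They covered 9 of the 10 genes, and no Hdac9 probe was tested. Rcor2 was selected on these arrays because its signal was higher in the miR-31-deficient cells than in the controls, so its difference between genotypes is given as a description and without a test.

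The study compared iTreg cells of miR-31fl/fl/CD4Cre mice (cKO, n = 3) with those of age-matched miR-31fl/fl control mice (n = 3), both on the C57BL/6 background and 6 weeks old. The starting population was naive spleen T cells, sorted as CD4+CD25-Foxp3gfp-CD62Lhi and activated through CD3 (plate-bound antibody, 5 μg/ml) and CD28 (soluble antibody, 2 μg/ml) with TGF-β1 at 5 ng/ml and IL-2 at 40 ng/ml. RNA was taken after 4 days, and each mouse gave 1 single-colour Agilent array. In cKO mice the Cre recombinase, driven in CD4-expressing T-lineage cells, removes the floxed miR-31 gene before the cells are sorted. Cre was carried by the cKO mice only, so an effect of Cre cannot be told apart from that of the deletion. The control mice carry the floxed allele without Cre.

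CoREST proteins are scaffolds that hold the histone demethylase LSD1 (Kdm1a) together with HDAC1 or HDAC2, so that methyl marks on histone H3 and acetyl marks are removed at the same genes. CoREST is best known for keeping neuronal genes silent in other cells through the DNA-binding factor REST, and in blood cells it is brought to genes by GFI1 and GFI1B. Several histone deacetylases also act on Foxp3 itself or at its target genes in regulatory T cells, where removal of acetyl groups can lower the stability of the Foxp3 protein.

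The RNA that the mutation removes is shown here because the 2 groups differ by it. Its main strand, miR-31-5p, lies in RefSeq (GRCm38.p6) on the minus strand of chromosome 4 and is printed with its seed, bases 2 to 8, in capitals.
miR-31-5p: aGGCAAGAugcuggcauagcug
An mRNA site that pairs with this seed holds the letters TCTTGCC. These letters, searched on the sense strand, were in 0 of the 20 member probes and in 0.323% of all 41174 probes; the probes are 60 bases long and do not cover whole transcripts. Among the member probes that the array annotation (mm9) places across an intron, so that they read spliced RNA, 2 are open in a single reading frame and are shown to let a reader see what was hybridised. The Rcor1 probe at chr12:112347115-112348043 (plus strand) spans 929 genomic bases, and the Hdac2 probe at chr10:36713455-36713589 (plus strand) spans 135. No base is marked by a capital in either.
Rcor1: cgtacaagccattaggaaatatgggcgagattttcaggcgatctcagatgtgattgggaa
Hdac2: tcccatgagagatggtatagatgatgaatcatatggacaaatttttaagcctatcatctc
Between probes of different members, the longest shared run was 10 bases (Rcor3 and Hdac2).

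All levels below are log2 signals after subtraction of the array's own 75th percentile, and a level is compared between arrays for 1 probe only, never between probes. Between 49.3% and 57.7% of the spots that were not controls were well above background on each array, and the number of arrays limits the precision. The slide carrying the 3 cKO arrays also carried control array 1, while control arrays 2 and 3 were on another slide scanned separately. Of the cKO arrays, array 3 lay farthest from the control mean for 60.3% of all tested probes and for 13 of the 15 tested member probes (86.7%), and limma gave it the lowest array weight (0.17). Values are therefore given with and without it where it matters. All 6 T cell genes on the array and all 7 regulatory T cell genes were well above background in both genotypes. Several of them differed between genotypes, as given with the other markers at the end. Presence alone does not single out T cells, since Cd79b, Cd68, Hbb-b1, Epcam, Cdh1 and Cldn7 were also well above background on every array. So were Cd8a and Cd8b1, although the starting cells were sorted as CD4+. In such bulk samples, fewer cells of a type and less RNA per cell cannot be told apart.

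Rcor2, a CoREST scaffold that is most abundant in stem cells and the nervous system, was the gene with the largest difference in the set. Its single probe (NM_054048, chromosome 19, 7349618 to 7349677, mm9) read −0.10, 0.86 and 1.54 on cKO arrays 1, 2 and 3. The control arrays read −0.996, −1.13 and −1.94. The groups did not overlap, with cKO higher, and the closest pair, cKO array 1 and control array 1, differed by 0.89. The means were 0.77 ± 0.83 in cKO and −1.36 ± 0.51 in control cells (SD, n = 3 each), a log2 fold change of 2.12 or 4.35-fold, which ranked 103rd from the highest of 22281 probes. These are the values for which the gene was chosen. Separation with cKO above control was seen for 16.2% of all tested probes.

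The replicates of Rcor2 were widely spread. Its residual SD was 0.69, and 5.38% of tested probes had a higher one, against a median of 0.20 over all of them. Within the cKO group the arrays spanned 1.64, more than the 0.95 spanned by the control arrays. The difference was 1.73 without cKO array 3 and 2.56 without cKO array 1. On the slide that held both genotypes, with control array 1 as its only control, it was 1.76.

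**Figure D1:**
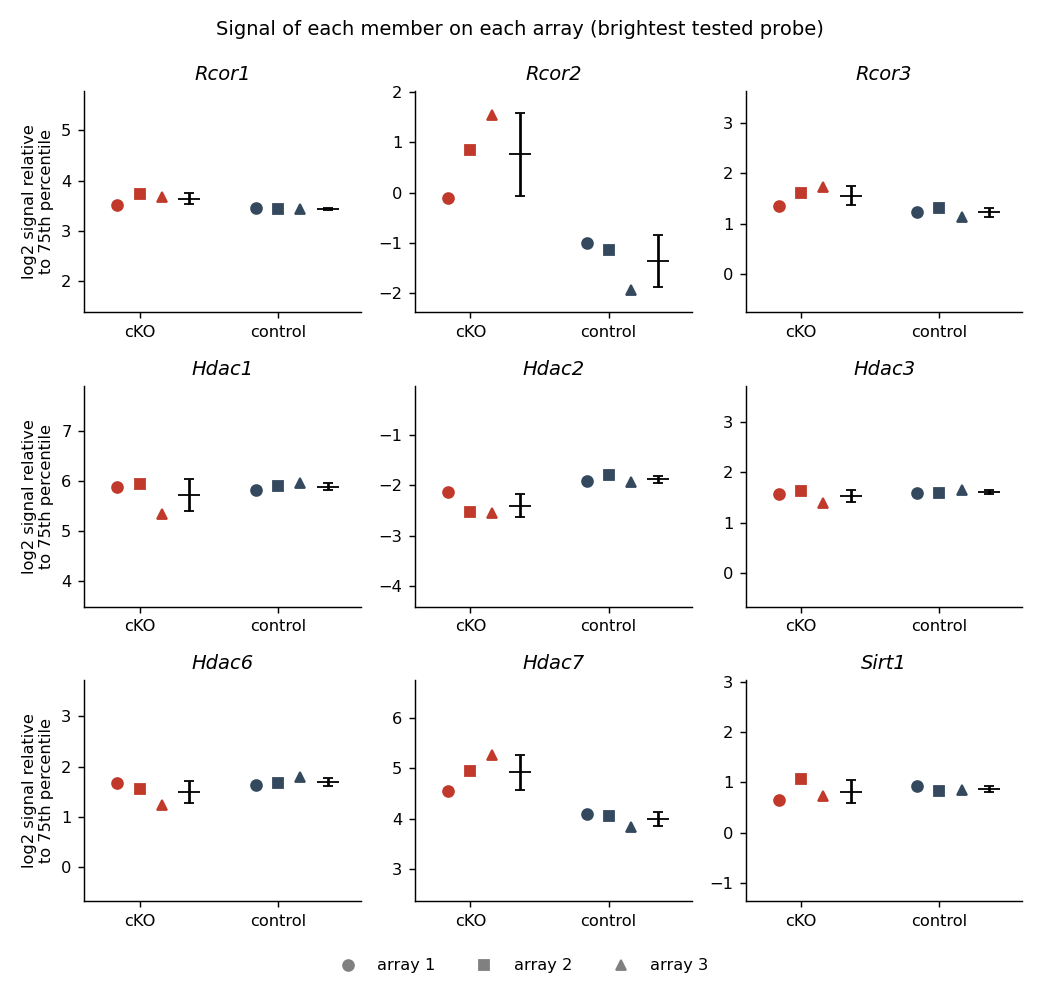
Log2 signal after subtraction of the 75th percentile (y axis, each panel spanning the same number of log2 units) of the brightest tested probe of 9 members on the 3 cKO (red) and 3 control (dark blue) arrays; marker shape gives the array number, and the black bar is the mean ± SD. Rcor2 read −0.10 to 1.54 in cKO and −1.94 to −0.996 in control cells, and the next largest differences between group means were those of Hdac7 (0.93) and Hdac2 (−0.53).

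Rcor1, the broadly expressed CoREST scaffold, was read by 3 probes with small differences. Its brightest probe read 3.52, 3.73 and 3.67 in cKO and 3.45, 3.43 and 3.43 in control cells. The lowest cKO array was thus above the highest control array, by less than the spread within the cKO group. The log2 fold change was 0.20 (standard error 0.10, adjusted p = 0.275 from limma) and turned to −0.07 with normexp background correction and the 75th percentile. The dimmer probes gave 0.21 (adjusted p = 0.257) and 0.19 (adjusted p = 0.298), again with no overlap, and stayed above 0 in every setting tried.

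Rcor3, the scaffold that can act against Rcor1 by lowering demethylase activity, was also read by 3 probes. The brightest read 1.35, 1.61 and 1.72 in cKO against 1.24, 1.31 and 1.13 in control cells, with cKO array 1 only just above control array 2. Its log2 fold change was 0.33 (standard error 0.13, adjusted p = 0.211). The second probe had a tighter control group, at −1.55, −1.54 and −1.57, against −1.30, −1.17 and −1.03 in cKO, a difference of 0.39 (adjusted p = 0.149). The third, the dimmest, overlapped between genotypes and gave 0.24 (adjusted p = 0.408), or 0.08 without cKO array 3. None of the 6 Rcor1 and Rcor3 probes passed an adjusted p of 0.05.

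Among the class I deacetylases, Hdac2, an enzyme that docks on the CoREST scaffold, had lower signal in cKO cells. Its tested probe read −2.14, −2.53 and −2.54 in cKO and −1.91, −1.79 and −1.93 in control cells. All cKO arrays were below all control arrays, a separation in this direction that 20.4% of all tested probes showed. The log2 fold change was −0.53 (1.44-fold lower, standard error 0.14, adjusted p = 0.144). It turned to 0.15 under normexp and 75th-percentile scaling, 1 of 20 alternatives, so its direction depends on that choice of background and scale. A second Hdac2 probe, on chromosome 10 from 36715306 to 36715365, was not well above background on any array.

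Hdac1, the other enzyme of the core complex, differed less. Its probe read 5.88, 5.93 and 5.35 in cKO and 5.81, 5.89 and 5.95 in control cells. Only cKO array 3 stood below the controls; the log2 fold change of −0.17 (95% interval −0.60 to 0.26, adjusted p = 0.573) became 0.02 without that array. The array annotation places this probe on chromosome 17, whereas RefSeq has Hdac1 on chromosome 4 and a pseudogene, Hdac1-ps, on chromosome 17, so which of these it reads is uncertain. Hdac3, the enzyme of the NCoR/SMRT complexes, read 1.57, 1.62 and 1.40 in cKO and 1.59, 1.59 and 1.66 in control cells. Its groups overlapped, with a log2 fold change of −0.08 (95% interval −0.33 to 0.17, adjusted p = 0.649), or −0.015 without cKO array 3.

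Hdac7, the class IIa deacetylase that is abundant in thymocytes and T cells and represses genes with MEF2 factors, had the next largest difference after Rcor2. Its brightest probe (NM_019572, chromosome 15, 97623442 to 97623501) read 4.56, 4.95 and 5.26 in cKO and 4.10, 4.05 and 3.84 in control cells. The second probe (97624093 to 97624152) read 1.54, 1.99 and 2.37 in cKO and 1.20, 1.32 and 0.89 in control cells. At both probes all cKO arrays were above all control arrays, with cKO array 3 the highest and control array 3 the lowest. The log2 fold changes were 0.93 (1.90-fold, standard error 0.20, 95% interval 0.45 to 1.40, adjusted p = 0.110) and 0.83 (1.78-fold, standard error 0.24, adjusted p = 0.151). Without cKO array 3 the brighter probe gave 0.76 (adjusted p = 0.134). With the slide as a block it gave 0.83 (adjusted p = 0.645). It gave the same 0.83 within the shared slide, which held control array 1 only.

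Hdac9, a class IIa enzyme known for limiting the suppressive function of regulatory T cells, had 4 probes, and none was tested. The brightest was well above background on 1 cKO array and no control array, and the other 3 on none. Hdac6, a mostly cytoplasmic class IIb enzyme that acts on tubulin, read 1.67, 1.56 and 1.25 in cKO and 1.64, 1.67 and 1.79 in control cells. Its groups overlapped, and its log2 fold change was −0.21 (95% interval −0.55 to 0.13, adjusted p = 0.383), or −0.09 without cKO array 3, which was the lowest.

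Sirt1, a nuclear deacetylase that removes acetyl groups from histones and from Foxp3, was read by 2 probes. Both had log2 fold changes below 0, and the groups overlapped at the brighter probe only. The brighter read 0.64, 1.08 and 0.73 in cKO and 0.93, 0.82 and 0.85 in control cells, overlapping, with a log2 fold change of −0.05 (95% interval −0.39 to 0.29, adjusted p = 0.842). The dimmer read −0.25, −0.21 and −0.58 in cKO and −0.06, −0.05 and 0.09 in control cells. There all cKO arrays were below the control arrays, with a log2 fold change of −0.34 (adjusted p = 0.211), or −0.22 without cKO array 3. The brighter probe gave 0.10 with array weights and 0.04 without cKO array 1, whereas the dimmer stayed below 0 in every setting.

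**Figure D2:**
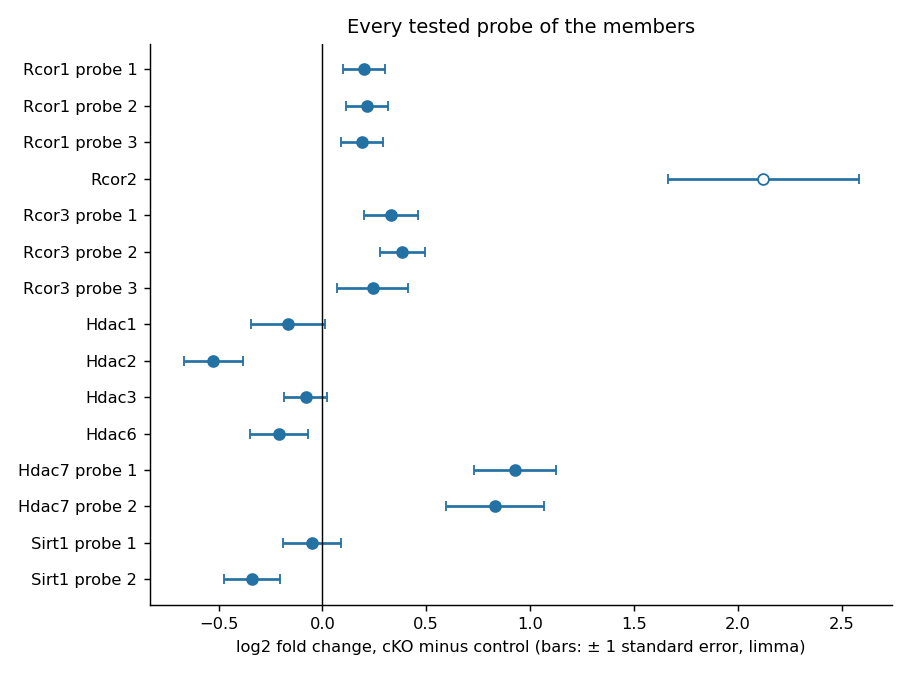
Log2 fold change of cKO minus control (x axis) with ± 1 standard error from limma for each of the 15 tested member probes (rows, brightest probe of a gene as probe 1); the open symbol is Rcor2, which was chosen for its rise. Rcor2 stands at 2.12 and the Hdac7 probes at 0.93 and 0.83, while the remaining probes lie between −0.53 and 0.39.

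With Rcor2 set aside, 0 of the 14 tested member probes passed an adjusted p of 0.05 in limma, as did 0.130% of all tested probes. At an unadjusted p under 0.05 there were 4 probes higher in cKO cells (11.7% of all probes; both Hdac7 probes and 2 Rcor3 probes) and 2 lower (11.3% of all probes; Hdac2 and the dimmer Sirt1 probe), in all 6 of 14 beside 23.0% of all probes. The groups did not overlap for 9 of the 14, of which 7 were higher and 2 lower, beside 36.6% of all probes. The median log2 fold change of the 14 was 0.20, against −0.04 over all tested probes, but these probes are not independent, since 8 of them read the 3 genes Rcor1, Rcor3 and Hdac7. Taken 1 probe per gene, the 8 genes had a median of −0.06, with 3 above and 5 below 0. On the brightest probes, the 2-sided test of the study's general methods passed 3 of the 8 genes unadjusted, beside 18.1% of all tested probes. After Benjamini-Hochberg adjustment, 0 passed. The 3 genes were not those of limma: Hdac2 and Hdac7 passed in both, Rcor1 in this test only and Rcor3 in limma only.

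**Figure D3:**
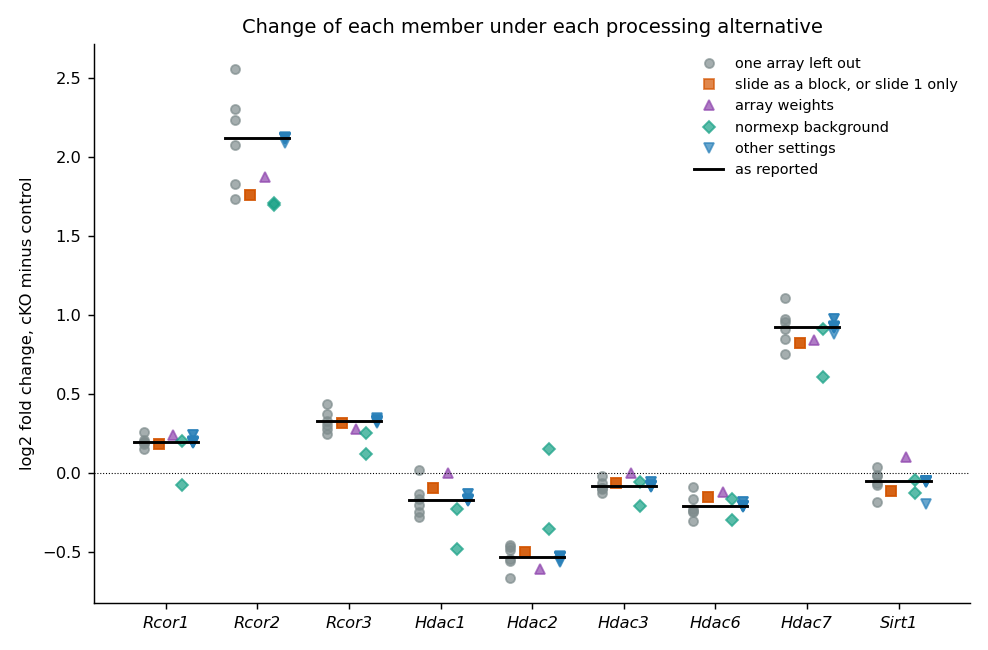
Log2 fold change of cKO minus control (y axis) of the brightest tested probe of 9 members (x axis; for genes with several tested probes, one of the other settings is their mean) as reported (black line) and under each processing alternative (symbols by kind). Rcor2 lay between 1.70 and 2.56 and Hdac7 between 0.61 and 1.11 in all settings, while Rcor1, Hdac1, Hdac2, Hdac3 and Sirt1 crossed 0 in at least 1 setting.

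The genes whose pattern over the 6 arrays was most like that of Rcor2 were Cyp2s1, a cytochrome P450, Ahnak, a large scaffold protein under the plasma membrane, and Csnk2a2, a catalytic subunit of casein kinase 2, each with Pearson's r at or above 0.998 over 6 arrays. Cyp2s1 read 1.86, 2.80 and 3.63 in cKO and 0.74, 0.57 and −0.42 in control cells. Ahnak read 3.69, 4.30 and 4.59 in cKO and 3.15, 3.12 and 2.64 in control cells. Each of the 3 followed the same order of arrays as Rcor2, with cKO array 3 highest and control array 3 lowest. The sizes differed, at a log2 fold change of 2.47 for Cyp2s1, 1.22 for Ahnak and 0.33 for Csnk2a2. Such likeness was common, since 672 of 14344 genes had r above 0.95 with Rcor2, and the 6 points are 2 genotypes of 3 arrays each.

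The partners that complete the CoREST complex had small differences. Kdm1a, the LSD1 demethylase, read 3.14, 3.24 and 3.10 in cKO and 3.09, 3.05 and 3.12 in control cells, a difference of 0.08 (adjusted p = 0.638). Hmg20b, a DNA-bending subunit, gave 0.34 (adjusted p = 0.142). The zinc finger subunits Zmym3 and Zmym2 gave 0.41 (adjusted p = 0.143) and 0.16 (adjusted p = 0.348). Phf21a, which binds unmethylated histone H3, gave 0.27 (adjusted p = 0.247). Gse1 gave 0.34 (adjusted p = 0.326), and Rest, the factor that brings CoREST to neuronal genes, gave 0.28 (adjusted p = 0.240). Of these 7 partners, 0 passed the adjusted p, 2 were higher at an unadjusted p under 0.05 (Hmg20b and Zmym3), beside 12.2% of all genes at their brightest probe, and 5 had every cKO array above every control array, beside 16.9% of all genes. The median of the 7 was 0.28.

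None of the remaining deacetylases passed the adjusted p. Hdac4, a class IIa relative of Hdac7, read 0.73, 0.88 and 1.57 in cKO and 0.46, 0.31 and 0.32 in control cells, the highest of its list at 0.70 (adjusted p = 0.174), and Hdac10 was the lowest at −0.18 (adjusted p = 0.374). Of 4 tested genes, 3 were higher at an unadjusted p under 0.05, beside 12.2% of all genes, and Hdac11 was not well above background on any array. Among 6 other sirtuins, 3 were higher on the same rule, beside the same 12.2%. The 6 ran from Sirt3, a mitochondrial enzyme, at 0.43 (adjusted p = 0.125) to Sirt7, a nucleolar one, at −0.02 (adjusted p = 0.931).

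The other complexes built on Hdac1, Hdac2 or Hdac3 showed no common direction. The 11 NuRD subunits had a median of −0.12, from Chd4, the remodelling ATPase, at 0.19 (adjusted p = 0.280) to Rbbp7, a histone-binding subunit, at −0.52 (adjusted p = 0.201). The 11 SIN3 subunits had a median of 0.07, from Sap30 at 0.48 (adjusted p = 0.107) to Brms1 at −0.28 (adjusted p = 0.305). Sap30 read 0.54, 0.54 and 0.67 in cKO against 0.03, 0.13 and 0.14 in control cells, with no overlap. The 5 NCoR/SMRT subunits lay between 0.06 for Ncor1 (adjusted p = 0.717) and −0.16 for Gps2 (adjusted p = 0.334). The 4 MIER and MiDAC subunits lay between 0.23 for Mier2 (adjusted p = 0.228) and −0.51 for Mier3 (adjusted p = 0.227).

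The enzymes that add acetyl groups also went both ways: Kat6b gave 0.58 (adjusted p = 0.154), Kat2a −0.53 (adjusted p = 0.229), and the median of 9 acetyltransferases was 0.03. Of the factors that bring CoREST or deacetylases to DNA, Gfi1, a zinc finger repressor of lymphoid and myeloid cells, was the highest. It read 2.22, 1.92 and 2.32 in cKO and 1.49, 1.12 and 0.53 in control cells, a difference of 1.10 (adjusted p = 0.122). Every cKO array was above every control array. Runx1 was the lowest of that list at −0.55 (adjusted p = 0.138).

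Neuronal genes that REST and CoREST keep silent were for the most part not well above background. Of 15 on the array, 8 were not well above background on any array and 5 were tested. Syn1 (−0.02), Chrm4 (−0.54) and Tubb3 (0.34) were well above background on every array and overlapped between genotypes. Grin1, a glutamate receptor subunit, had the highest fitted value, but it was well above background on 1 cKO and 2 control arrays only, and its groups overlapped. Syp, the synaptic vesicle protein synaptophysin, had the lowest. It read −4.63, −3.73 and −4.89 in cKO, well above background on 1 of the 3 arrays, and −2.56, −2.58 and −1.91 in control cells. All cKO arrays were below all control arrays, but Syp entered the test only through the controls and 2 of its cKO values were not well above background, so no fold change or p is given for either gene.

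Over the 69 tested genes of these lists, 0 passed the adjusted p in limma. At an unadjusted p under 0.05, 12 were higher and 5, Syp among them, lower, in all 24.6%, beside 23.5% of all genes at their brightest probe. Syp entered the test only through the controls, so its place in the 5 and in the 24.6% carries no weight.

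**Figure D4:**
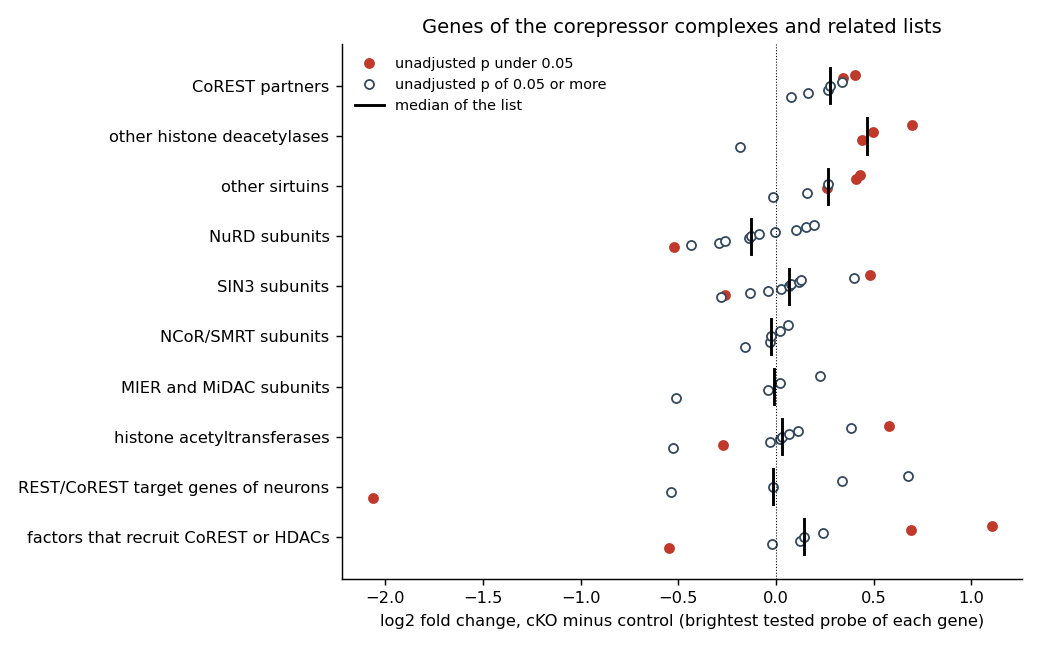
Log2 fold change of cKO minus control (x axis) for the brightest tested probe of each gene, by list (rows); filled red points have an unadjusted p under 0.05 in limma, open points do not, and the black line is the list's median. The CoREST partners have a median of 0.28 and the NuRD subunits of −0.12, and Gfi1 stands at 1.10. The leftmost point is Syp, which was well above background on 1 cKO array only, so that its place is not exact. It entered the test only through the controls, and its colour is not to be read as a call. The rightmost point of the neuronal list is Grin1, which was well above background on 1 cKO and 2 control arrays only, so that its place is not exact either.

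Markers of T cells and of other cell types were measured beside these values. None passed the adjusted p. Of the 6 T cell genes, 4 were higher in cKO cells at an unadjusted p under 0.05 with no overlap between groups. These were Cd3g (log2 fold change 0.74), Cd4 (0.67), Cd28 (0.43) and Cd3d (0.39), and 1 was lower on that p (Cd3e, −0.27). Over all genes at their brightest probe, 12.2% were higher and 11.3% lower on that p. Every cKO array was above every control array for 16.9% of all genes. Foxp3, the defining factor of regulatory T cells, read 3.23, 3.19 and 2.53 in cKO and 3.48, 3.48 and 3.81 in control cells (−0.61, adjusted p = 0.191), with all cKO arrays below the controls. Ctla4, an inhibitory receptor, was higher on all cKO arrays (0.94, adjusted p = 0.137). Of the 7 regulatory T cell genes, 1 was higher (Ctla4) and 2 lower (Foxp3 and Nrp1, −0.76) at an unadjusted p under 0.05. The shares of all genes were the same 12.2% and 11.3%. Nrp1 overlapped between genotypes, as did Il10 (0.98), Ikzf2 (0.51), Tnfrsf18 (0.41) and Il2ra (−0.55). The summed signal (not scaled between arrays) of 6 B cell genes was 584 to 1259 in cKO and 419 to 708 in control cells, with Pax5 and Blk not well above background on any array and only Cd79b tested. That of 7 myeloid genes was 301 to 366 and 285 to 455, with 2 tested, Cd68 (0.64, adjusted p = 0.187, higher on all cKO arrays) and Csf1r (0.15, overlapping). That of 5 erythroid genes was 557 to 1099 in cKO and 236 to 452 in control cells, resting on Hbb-b1 (log2 fold change 2.10, adjusted p = 0.164), whereas Hba-a1, not tested, was lower on all cKO arrays (−5.54 ± 0.83 against −3.67 ± 0.37, SD, n = 3 each) and well above background on 2 control arrays only, with Alas2 not well above background on any array. That of 6 epithelial genes was 1637 to 2079 and 1143 to 1202, with Krt8 and Krt19 not well above background on any array. Of the 4 tested, Cdh1 (1.02, adjusted p = 0.142) and Epcam (0.62, adjusted p = 0.155) were higher on all cKO arrays, beside 16.9% of all genes. Krt18 and Cldn7 overlapped between genotypes. The 2 CD8 T cell genes summed to 4056 to 4288 in cKO and 4813 to 6126 in control cells. Taken singly, both Cd8a (−0.86) and Cd8b1 (−0.17) overlapped between genotypes. The erythroid and epithelial sums, Ctla4, Cd68 and the 4 T cell genes were higher on all cKO arrays, as Rcor2 and Hdac7 were. The CD8 sum, Foxp3, Cd3e and Hba-a1 were lower on all cKO arrays. The part of these markers in the differences of the members was not tested.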

How the data were processed

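RNA of 6 iTreg cultures (1 per mouse) was labelled with Cy3 from 0.5 μg and hybridised to single-colour arrays of 60-base probes. The deposited scanner files hold the processed intensity of each spot after background subtraction by Feature Extraction, version 10.7.3.1 per the file headers and 9.1 in the submitters' processing notes. The authors also deposited a table of normalized log2 values, used as an alternative only. Control spots and flagged outlier spots (123 to 140 per array) were left out, log2 intensities of spots of 1 probe were averaged, and each array's 75th percentile over probes (939 to 1095) was subtracted. A probe was tested when at least 1 of its spots was well above background on at least 3 arrays. How spots enter that rule and the percentile was matched to an earlier analysis of these data whose counts were known.

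Groups came from the sample titles. cKO and control arrays were compared with limma 3.58.1 (R 4.3.3; lmFit, eBayes) over all 22281 tested probes with Benjamini-Hochberg adjustment and a threshold of 0.05; figures and counts used Python 3.11.15. The fit was checked on simulated data. For 19 tested probes an array lacked a value. Every member probe is named. In each complex list, the highest and lowest tested gene, any gene past the adjusted p and every CoREST partner but 1 are named, and the 3 genes most like Rcor2 by Pearson's r. That 1 partner is not reported here and was left out of its list's counts. Hdac11, Syn1, Chrm4, Tubb3 and the cell type markers named were chosen after their values were seen. The members and lists were chosen with earlier results of these data known. Each replicate is a separate mouse. Alternatives covered background correction, scaling, filter, test, array weights, replicate block, slide, probe choice and each array left out. Replicate numbers were compared across genotypes, showed no shared deviation and were not used to pair the samples in the reported fit.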

Additional observations from a re-analysis of the deposited data

How the results depend on the processing

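The log2 fold changes of Rcor2 (1.70 to 2.56), Rcor3 (0.12 to 0.44), Hdac6 (−0.30 to −0.09) and Hdac7 (0.61 to 1.11) kept their direction under every alternative run. Normexp background correction with the 75th percentile, which moved the median of all tested probes from −0.04 to 0.11, turned Rcor1 to −0.071 and Hdac2 to 0.15. Array weights turned Hdac1 to 0.00069, Hdac3 to 0.00098 and Sirt1 to 0.10, and took Hdac2 (−0.61, adjusted p = 0.036) and Hdac7 (0.84, adjusted p = 0.028) past the adjusted p, so that 2 members passed it. With 1 array left out in turn, Rcor1 gave 0.16 to 0.26, Rcor2 1.73 to 2.56, Rcor3 0.25 to 0.44, Hdac1 −0.27 to 0.020 (above 0 without cKO array 3), Hdac2 −0.66 to −0.45, Hdac3 −0.13 to −0.01, Hdac6 −0.30 to −0.09, Hdac7 0.76 to 1.11 and Sirt1 −0.18 to 0.038 (above 0 without cKO array 1). The cause of these reversals was not tested.

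The count of all probes past the adjusted p was 29. Normexp followed by quantile normalization gave 112, normexp and the 75th percentile 0. It was 79 with the median as scaling point, 0 without the filter on dim probes, 175 for probes above background on all arrays, 0 with the methods' t-test, 98 with trend and robust fitting, and 1824 with array weights. It was 0 to 1 with 1 array left out, 0 with the slide as a block and 0 within slide 1. With the percentile taken over spots, an alternative chosen after seeing the data, it was 54; the choice between this and the reported scaling was made with both counts known. Members other than Rcor2 past an unadjusted p (3 as reported) numbered 1 with normexp and the 75th percentile, 1 with the slide as a block, 0 within slide 1 and 2 to 4 with 1 array left out. All tested probes past it, 5118 as reported, numbered 1659, 1638, 1303 and 2863 to 6469 in those settings and 7404 with array weights. Genes of the complex lists (17 as reported) numbered 5, 3, 2 and 10 to 24 there and 28 with array weights, which took 7 past the adjusted p.

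With the replicate number as a block, 0 probes passed the adjusted p, and the adjusted p of Hdac7 was 0.271 and of Hdac2 0.295. Samples of the same number did not deviate together (r = −0.14, 0.01 and −0.19 for numbers 1, 2 and 3). No shared deviation by number was thus seen, which cannot show whether cultures of the same number were handled together. Signal over background limits Hdac9, the second Hdac2 probe and most neuronal genes, of which no difference could be read.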
